A study of Rattus norvegicus with 10 samples.

Results

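The genes described here encode the non-collagenous glycoproteins of the extracellular matrix: laminins and their linkers, the components of elastic fibres, thrombospondins, adhesive and matricellular proteins, and glycoproteins typical of cartilage. A rule on gene symbols selected them and uses no measured value. The rule itself was set with earlier results of these data known. Of the 23188 probesets tested, 36 carried such a symbol, 1 for each of 36 genes. The RefSeq gene table of rat assembly GRCr8 lists 49 genes under the same rule, and the remaining 13 are not analysed here.

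RNA was measured on 10 whole-transcript Affymetrix arrays. Of these, 5 (arrays 6 to 10, ShBNIP3) held nucleus pulposus cells, the cells of the gel-like core of the intervertebral disc, given a lentivirus that delivers a short hairpin RNA against Bnip3, the mitophagy receptor of the outer mitochondrial membrane. The other 5 (arrays 1 to 5, ShCtrl) held cells given a control hairpin in the pLKO.1 vector. All cells came from male Sprague Dawley rats of 300 g, aged 3 to 4 months, and were lysed 4 days after transduction. Thus both groups had been cultured and infected. The labels do not say how many hairpins or animals were used, nor whether replicate arrays stem from independent cultures. The p-values thus refer only to the scatter among these arrays, and that scatter may be technical. The extraction text also describes disc tissue of mice, which fits neither the organism nor the treatment given for these samples.

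Laminins are heterotrimers of alpha, beta and gamma chains that form the sheet of basement membranes, to which nidogens, perlecan and agrin attach. Elastic fibres consist of crosslinked elastin on a scaffold of fibrillin microfibrils, with fibulins, emilins and microfibril-associated proteins as assembly factors. In the disc, elastic fibres lie between the collagen lamellae and around cells, while fibronectin, thrombospondins, osteopontin (Spp1) and periostin (Postn) bind integrins and tune how cells attach. Matrix Gla protein (Mgp) is an inhibitor of calcification, and Cilp is a glycoprotein of the cartilage interterritorial matrix that has been linked to lumbar disc disease in people.

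Levels are log2 signals as the authors normalized them, and differences are ShBNIP3 minus ShCtrl with the standard error (SE) of the limma fit. Adjusted p-values come from limma with Benjamini-Hochberg adjustment over all 23188 probesets, and a gene passed at an adjusted p under 0.05. Bnip3 itself had a difference of -3.21 (SE 0.40, limma adjusted p = 0.00020), with levels of 10.59 to 12.68 on ShBNIP3 arrays, against 13.94 to 15.97 on ShCtrl arrays. The background level of an array was set at the 95th percentile of its 23 antigenomic probesets, which match no gene, and lay between 6.50 and 6.78. It is a coarse limit, since single antigenomic probesets spanned 2.55 to 7.85. Arrays correlated with the others of their group at a mean Pearson r of 0.992 on 8 arrays, 0.983 on ShCtrl array 4 and 0.986 on ShBNIP3 array 10. Where leaving out these 2 arrays changes whether a gene passed, the value without them is given as well.

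Several classical nucleus pulposus markers were not above background in these cultures. Of 10 such markers measured, the notochordal factor Tbxt, the keratins Krt8, Krt18 and Krt19 and the morphogen Shh were at background on all 10 arrays in both groups. The cartilage genes Acan (12.25 in ShBNIP3, 13.15 in ShCtrl) and Col2a1 (9.19 in ShBNIP3, 9.86 in ShCtrl) were above background. Endothelial markers were at background for 8 of 8 measured and macrophage or leukocyte markers for 9 of 10. Because these are bulk samples, fewer cells of a type and less RNA per cell cannot be told apart.

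Among the 36 matrix glycoprotein genes, 3 rose in ShBNIP3 cells (Mgp, Postn and Spp1), 5 fell (Cilp, Mfap5, Fbln1, Comp and Mfap4) and 28 did not pass. The share that passed, 22.2%, compares with 15.5% of all probesets (7.61% higher and 7.87% lower). Among genes with signal above background on at least 1 array, 6 of 21 passed, a share of 28.6%, against 28.1% of all such probesets, so the shares were nearly equal there. The median difference was -0.08 over these genes and 0.02 over all probesets. A measured difference of at least 2-fold beside the test was met by Mgp, Postn and Cilp, the last of which ends in the background range, against 4.18% of all probesets (1.44% higher and 2.74% lower). Just outside that fold lay Mfap5, with a difference of -0.99. The groups did not overlap for 8 of the 36 genes, where 12.9% of all probesets had no overlap. Signal was above background on all arrays for 17 of these genes and at background on all arrays for 15.

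**Figure D1:**
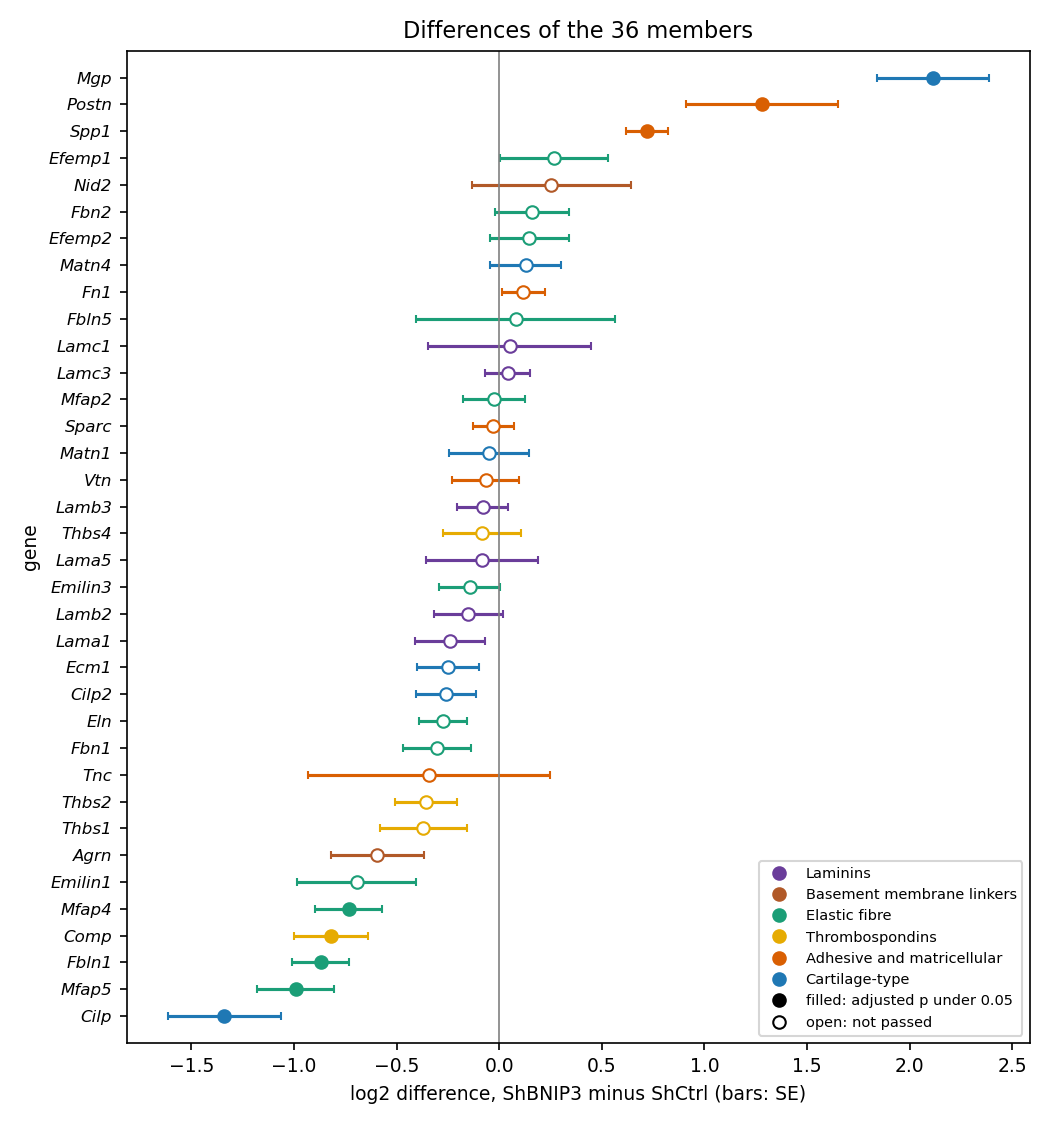
Log2 difference (ShBNIP3 minus ShCtrl, x axis) of each of the 36 matrix glycoprotein genes (y axis), with bars for the SE and colours for the gene family. Filled points passed at an adjusted p under 0.05: Mgp, Postn and Spp1 lie to the right of 0, and Mfap4, Comp, Fbln1, Mfap5 and Cilp to the left.

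Mgp had the widest difference of these genes. Its level was 18.11, 18.25, 18.34, 18.37 and 18.31 on ShBNIP3 arrays 6 to 10, against 16.17, 15.99, 15.56, 17.37 and 15.72 on ShCtrl arrays 1 to 5. Every ShBNIP3 array lay above every ShCtrl array, and ShCtrl array 4 was the highest control. The rise was 4.32-fold (log2 2.11, SE 0.27, limma adjusted p = 0.00024), and without ShCtrl array 4 and ShBNIP3 array 10 it was 5.29-fold (log2 2.40, SE 0.15). The ShBNIP3 values were also tightly grouped, with an SD of 0.10 against 0.72 in ShCtrl (n = 5 each). Over all 10 arrays, Mgp lay between 1.15 and 3.75 below the brightest probeset.

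Spp1 encodes osteopontin, a secreted phosphoprotein that binds integrins and mineral. It measured 18.71, 18.83, 18.80, 18.85 and 18.66 on ShBNIP3 arrays 6 to 10, against 17.93, 18.06, 18.09, 18.12 and 18.06 on ShCtrl arrays 1 to 5. The groups were separate, and neither ShCtrl array 4 nor ShBNIP3 array 10 stood apart. The rise was 1.65-fold (log2 0.72, SE 0.10, limma adjusted p = 0.00045). Spp1 lay between 0.66 and 1.62 below the brightest probeset, and how far the scale is compressed there was not tested.

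Postn encodes periostin, an adhesive protein of collagen-rich tissues that is deposited where tissue is loaded or repaired. Its level was 8.54, 8.66, 9.55, 9.39 and 10.41 on ShBNIP3 arrays 6 to 10, against 7.68, 7.74, 7.94, 9.20 and 7.59 on ShCtrl arrays 1 to 5. The groups overlapped through ShCtrl array 4, which lay above ShBNIP3 arrays 6 and 7. The rise was 2.43-fold (log2 1.28, SE 0.37, limma adjusted p = 0.033, exact two-sided permutation p = 0.0238). The adjusted p was over 0.05, between 0.0560 and 0.0820, when any of ShCtrl arrays 1, 2, 3 or 5 or ShBNIP3 arrays 8, 9 or 10 was left out. Without ShCtrl array 4 and ShBNIP3 array 10 together, the log2 difference was 1.30 (SE 0.22, limma adjusted p = 0.0012) and the groups no longer overlapped.

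**Figure D2:**
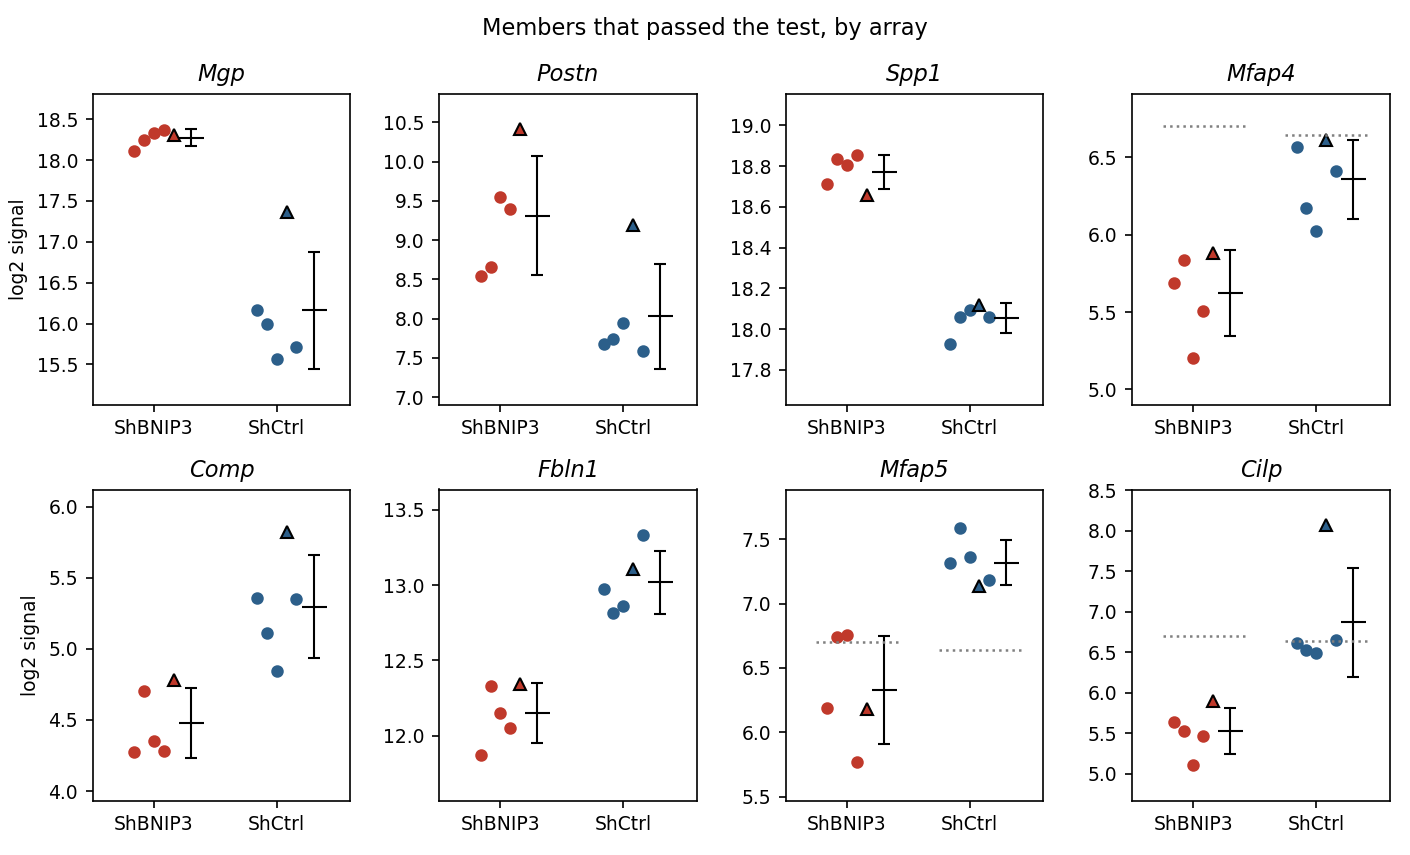
Log2 signal (y axis) of the 8 genes that passed, 1 point per array with ShBNIP3 left of ShCtrl, and mean ± SD (n = 5 each) beside the points. Triangles mark ShBNIP3 array 10 and ShCtrl array 4, and dotted lines the mean background level of each group where it falls in range. Comp and Mfap4 lie below background on all arrays. ShCtrl array 4 is the highest control for Mgp, Postn, Cilp and Comp and, by a small margin, for Spp1 and Mfap4.

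Of 12 elastic fibre genes measured, 3 fell and 0 rose (5 and 0 by an unadjusted limma p under 0.05), with a median difference of -0.21. Of all probesets, 7.87% fell and 7.61% rose. Only Fbln1 of the 3 was above background on all arrays. Mfap4 lay at background throughout, and Mfap5 did so on 4 of the 5 ShBNIP3 arrays. Fbln1 encodes fibulin-1, which binds fibronectin, laminin and elastin. It measured 11.87, 12.33, 12.15, 12.05 and 12.34 on ShBNIP3 arrays 6 to 10, against 12.97, 12.82, 12.86, 13.11 and 13.33 on ShCtrl arrays 1 to 5. No ShBNIP3 array reached the lowest control. Its level fell 1.83-fold, a log2 difference of -0.87 (SE 0.14, limma adjusted p = 0.0011, exact two-sided permutation p = 0.00794, the smallest that 252 splits of the arrays can give). Leaving out any array kept the log2 difference between -0.92 and -0.79.

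Mfap5 encodes a microfibril-associated glycoprotein that binds fibrillin and is typical of fibroblasts. Its level was 6.19, 6.74, 6.75, 5.77 and 6.18 on ShBNIP3 arrays 6 to 10, against 7.32, 7.59, 7.36, 7.14 and 7.19 on ShCtrl arrays 1 to 5. The groups did not overlap, and 4 of the 5 ShBNIP3 arrays were at background, so the difference of -0.99 (SE 0.19, limma adjusted p = 0.0031) ends near the floor of the array. Mfap4, which binds fibrillin and elastin, averaged 5.62 ± 0.28 in ShBNIP3 and 6.36 ± 0.26 in ShCtrl (SD, n = 5 each, limma adjusted p = 0.0085). Both groups were at background on all arrays there, so no fold is given for Mfap4.

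The other elastic fibre genes did not pass. Elastin itself (Eln) was at background on 9 of 10 arrays, at 5.97 to 6.16 in ShBNIP3 and 6.17 to 6.63 in ShCtrl. Its groups just failed to overlap, but the limma adjusted p was 0.15. The main microfibril gene Fbn1 differed by -0.30 (SE 0.17, limma adjusted p = 0.28) and Emilin1, which sits at the interface of elastin and microfibrils, by -0.70 (SE 0.29, limma adjusted p = 0.14). Efemp2 (fibulin-4), needed to bring lysyl oxidase to elastin, differed by 0.15 (SE 0.19, limma adjusted p = 0.71). Fbln5, an elastin-binding fibulin, differed by 0.08 (SE 0.49, limma adjusted p = 0.95), with a wide SE that is taken up below. Efemp1, Emilin3, Fbn2 and Mfap2 were at background on all arrays and did not pass.

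With all arrays no laminin chain passed, 0 of 6 in limma and 0 by an unadjusted p under 0.05. Of all probesets, 15.5% passed in limma. The gamma chain Lamc1, present in most laminin trimers, differed by 0.05 (SE 0.40, limma adjusted p = 0.96), and the beta chain Lamb2 by -0.15 (SE 0.17, limma adjusted p = 0.65). Lama1, Lama5, Lamb3 and Lamc3 were at background on all arrays. Lama1 nevertheless passed, within the background range, without ShCtrl array 4 and ShBNIP3 array 10 (limma adjusted p = 0.037, with 4.32 to 4.74 on the 4 ShBNIP3 arrays and 4.92 to 5.18 on the 4 ShCtrl arrays). The 2 linkers measured did not pass either. Agrin (Agrn), a heparan sulfate proteoglycan of basement membranes, differed by -0.60 (SE 0.23, limma adjusted p = 0.10) and was at background on all ShBNIP3 arrays and on 2 ShCtrl arrays.

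Nidogen-2 (Nid2), which ties laminin to collagen IV, depended on ShCtrl array 4. It measured 10.10, 10.06, 10.08, 10.00 and 10.10 on ShBNIP3 arrays 6 to 10, against 9.22, 8.89, 9.66, 11.62 and 9.68 on ShCtrl arrays 1 to 5. The ShBNIP3 arrays were nearly equal and above each control except array 4, which was far higher. With all arrays the difference was 0.25 (SE 0.39, limma adjusted p = 0.76), and without ShCtrl array 4 it was 0.70 (SE 0.16, limma adjusted p = 0.0098). Without ShCtrl array 4 and ShBNIP3 array 10 it was 0.70 (SE 0.17, limma adjusted p = 0.013).

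Thrombospondins are calcium-binding multimeric glycoproteins that engage CD36, CD47 and integrins. Of 4 measured, 1 fell and 0 rose (2 and 0 by an unadjusted p under 0.05), where 7.87% of all probesets fell and 7.61% rose. Comp, the cartilage oligomeric protein of this family, averaged 4.48 ± 0.24 in ShBNIP3 and 5.30 ± 0.36 in ShCtrl (SD, n = 5 each, limma adjusted p = 0.0080). All its values were at background, so its fall has no usable fold. Thbs1, an activator of latent TGF-beta, differed by -0.37 (SE 0.21, limma adjusted p = 0.30). It lay between 0.40 and 1.75 below the brightest probeset, where compression of the scale was not tested. Thbs2, an inhibitor of angiogenesis, measured 17.42 to 18.19 on ShBNIP3 arrays, with its highest value on array 10, against 17.96 to 18.22 on ShCtrl arrays. Its difference of -0.36 (SE 0.15, limma adjusted p = 0.15) was -0.48 (SE 0.13, limma adjusted p = 0.023) without ShBNIP3 array 10. Without that array and ShCtrl array 4 it was -0.46 (SE 0.13, limma adjusted p = 0.029). Thbs4 was at background throughout.

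Of 6 adhesive and matricellular genes, 2 passed (Postn and Spp1). Among all probesets 15.5% passed, and among those above background on at least 1 array 28.1% did. The other genes of this family showed small differences or a wide spread. Fibronectin (Fn1), the main ligand of integrin alpha5 beta1, measured 19.52 to 19.73 on ShBNIP3 arrays and 19.32 to 19.55 on ShCtrl arrays, a difference of 0.12 (SE 0.10, limma adjusted p = 0.55). Its probeset was the brightest of the whole table on all 10 arrays. Sparc, a collagen-binding matricellular protein, measured 19.04 to 19.18 on ShBNIP3 arrays and 19.02 to 19.20 on ShCtrl arrays, within 0.67 of the brightest probeset, and differed by -0.03 (SE 0.10, limma adjusted p = 0.90). How far the scale is compressed at this end was not tested. Tenascin-C (Tnc), an anti-adhesive protein of remodelling tissue, differed by -0.34 (SE 0.59, limma adjusted p = 0.79). Vitronectin (Vtn) was at background on all arrays.

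Of 6 cartilage-type glycoproteins, Mgp rose and Cilp fell, where 7.61% of all probesets rose and 7.87% fell. Cilp measured 5.64, 5.53, 5.11, 5.46 and 5.90 on ShBNIP3 arrays 6 to 10, against 6.61, 6.52, 6.49, 8.07 and 6.66 on ShCtrl arrays 1 to 5. The groups did not overlap, but all ShBNIP3 arrays and 3 of the ShCtrl arrays were at background. The measured difference was -1.34 (SE 0.28, limma adjusted p = 0.0054, exact two-sided permutation p = 0.00794). Set against the background level, Cilp was at least 1.12-fold lower, a bound that rests on ShCtrl array 4: without it the mean of the other ShCtrl arrays, 6.57, lay below the background level of 6.70 on the ShBNIP3 arrays, so no fold is left. Without ShCtrl array 4 and ShBNIP3 array 10 the measured difference was -1.13 (SE 0.14). Ecm1, which binds perlecan and fibulins, differed by -0.25 (SE 0.15, limma adjusted p = 0.33), and Cilp2, Matn1 and Matn4 were at background on all arrays.

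Sequences before the transcription start are shown for Postn and Spp1, which rose, and for Cilp and Mfap5, which fell and were above background on at least 2 arrays. Comp, at background on all arrays, has a window that is not printed, and Mgp, Fbln1 and Mfap4 are not among the windows found. Each is the 250 bases before the RefSeq start in assembly GRCr8, 5′ to 3′ on the strand of the gene, with matches to the motifs named next in capitals.
Postn, chr2:140677811-140678060, plus strand: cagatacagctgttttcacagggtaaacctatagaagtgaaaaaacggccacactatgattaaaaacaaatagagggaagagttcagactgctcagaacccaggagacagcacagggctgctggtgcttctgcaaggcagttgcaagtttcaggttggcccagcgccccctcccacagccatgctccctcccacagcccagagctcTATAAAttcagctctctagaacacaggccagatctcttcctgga
Spp1, chr14:5619805-5620054, minus strand: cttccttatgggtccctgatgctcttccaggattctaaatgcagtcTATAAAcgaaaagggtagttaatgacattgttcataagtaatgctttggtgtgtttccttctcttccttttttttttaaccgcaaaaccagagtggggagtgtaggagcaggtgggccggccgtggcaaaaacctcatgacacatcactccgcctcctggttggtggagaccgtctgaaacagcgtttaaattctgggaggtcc
Cilp, chr8:74672198-74672447, plus strand: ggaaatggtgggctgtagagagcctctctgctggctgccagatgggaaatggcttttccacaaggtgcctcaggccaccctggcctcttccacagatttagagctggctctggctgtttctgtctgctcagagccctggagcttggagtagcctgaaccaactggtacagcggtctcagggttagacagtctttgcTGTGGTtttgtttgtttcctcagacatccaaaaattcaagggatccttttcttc
Mfap5, chr4:157399669-157399918, plus strand: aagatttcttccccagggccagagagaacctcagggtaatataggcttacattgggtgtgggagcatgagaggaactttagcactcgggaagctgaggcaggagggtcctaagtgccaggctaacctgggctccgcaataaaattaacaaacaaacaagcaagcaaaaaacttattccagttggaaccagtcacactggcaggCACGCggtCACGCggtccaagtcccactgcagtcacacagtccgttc

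Windows were found for 25 of the 36 genes and were searched on both strands for the TATA core TATAAA, the AP-1 motif TGANTCA, the hypoxia response cores with first base A (written ACGTG) or first base G (written GCGTG), the TEAD motif GGAATG, the RUNX motif TGTGGT and an NF-kB motif. TATAAA began 44 bases before the start in Postn and 204 before it in Spp1, and was present in 4 of the 25 windows and 13.1% of 27457 windows of all genes. Mfap5 held GCGTG on the opposite strand at 47 and 39 bases before the start (8 of the 25 windows, 27.2% of all). Cilp held TGTGGT at 54 bases (2 of 25, 14.1% of all). TGANTCA was in 2 of the 25 windows (6.36% of all), ACGTG in 2 (16.9%), GGAATG in 6 (11.8%) and the NF-kB motif in 3 (3.52%), and none of these lay in the 4 windows shown. One of the NF-kB matches was in Comp, on the opposite strand at 231 bases. These matches describe letters in a window and are not binding sites.

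Some genes varied more between arrays of a group than between the groups. On ShCtrl array 4, 9 of the 36 genes lay over 1 log2 unit from the mean of the other ShCtrl arrays, and on ShBNIP3 array 10, 4 did so against the other ShBNIP3 arrays. Those on array 10 were Tnc, Lamc1, Postn and Fbln5, and each deviated in the same direction on both arrays. Tnc was at 14.48 on ShBNIP3 array 10, where the other ShBNIP3 arrays spanned 12.06 to 12.68, and at 15.37 on ShCtrl array 4, where the other controls spanned 12.32 to 12.77. Lamc1 was likewise high, at 14.42 on ShBNIP3 array 10 and 14.22 on ShCtrl array 4. Fbln5 went the other way, at 9.99 on ShBNIP3 array 10 (others 11.55 to 12.57) and 10.29 on ShCtrl array 4 (others 11.46 to 12.39).

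Bnip3 was also high on both arrays, by 1.61 on ShBNIP3 array 10 and 1.71 on ShCtrl array 4 above the mean of the other arrays of each group, and its part in these values was not tested. Without the 2 arrays, Tnc differed by -0.21 (SE 0.16), Lamc1 by 0.01 (SE 0.13) and Fbln5 by 0.17 (SE 0.28), and none of them passed in limma. With 8 arrays, 4 of the 36 genes rose and 7 fell, against 9.84% and 10.1% of all probesets (19.9% together). The groups did not overlap for 14 of the 36 genes, where 23.6% of all probesets had no overlap. Nid2 was the added rise, and Thbs2 and Lama1 were the added falls. All 8 genes that had passed with 10 arrays passed again.

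**Figure D3:**
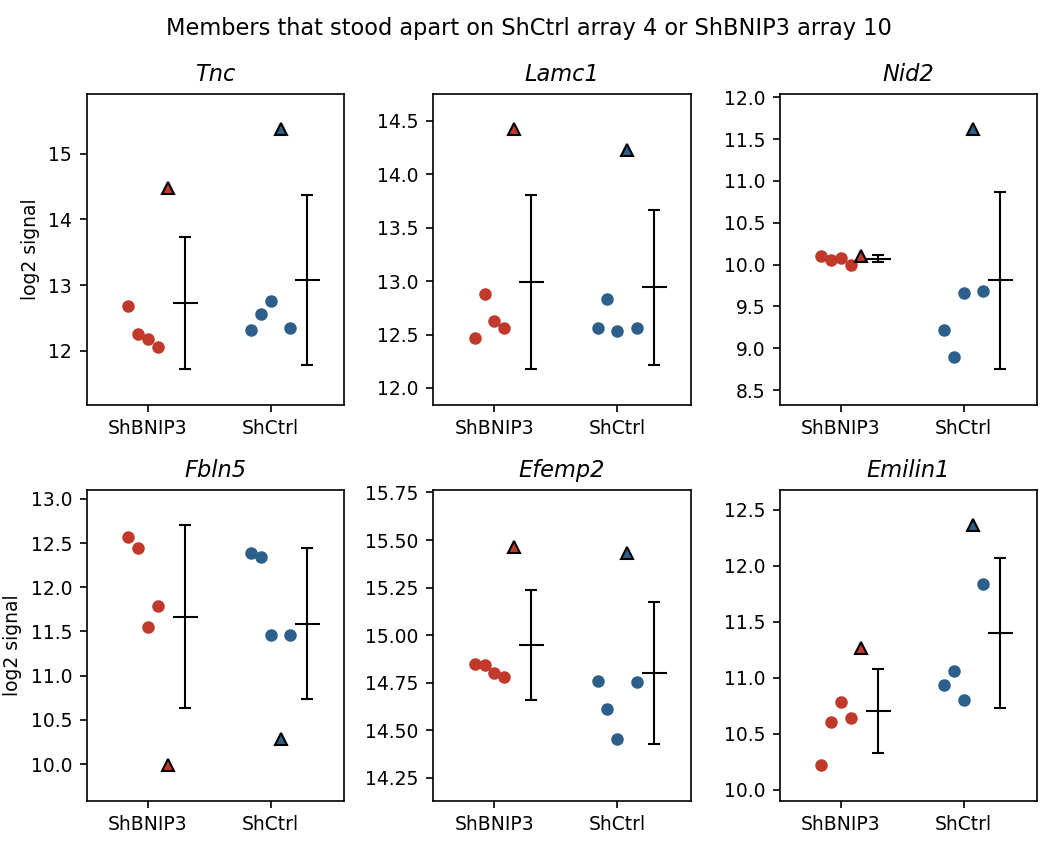
Log2 signal (y axis) of 6 genes chosen after their values were seen, 1 point per array with ShBNIP3 left of ShCtrl, and mean ± SD (n = 5 each). Triangles mark ShBNIP3 array 10 and ShCtrl array 4. Each lies above the other arrays of its own group for Tnc, Lamc1, Efemp2 and Emilin1, and below them for Fbln5. Nid2 is high on ShCtrl array 4.

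Genes that act with these glycoproteins were taken from 3 further lists. These lists and the marker lists were also set with earlier results of these data known, so their counts are descriptions. Among 9 measured crosslinkers and latent TGF-beta binding proteins of elastic fibres, 3 fell and 0 rose. All 9 were above background on all arrays. Of the 11761 probesets above background on at least 1 array, 1702 fell and 1606 rose, 28.1% in both directions together. The lysyl oxidase Loxl2, which crosslinks collagen IV, averaged 12.2 ± 0.39 in ShBNIP3 and 13.8 ± 0.47 in ShCtrl (SD, n = 5 each), a 3.16-fold fall (log2 -1.66, SE 0.24, limma adjusted p = 0.00048). Loxl1, the family member tied to elastin renewal, averaged 9.51 ± 0.26 in ShBNIP3 and 10.6 ± 0.28 in ShCtrl, and fell 2.08-fold (limma adjusted p = 0.00094). Ltbp4, which guides elastin onto microfibrils, fell 1.64-fold (limma adjusted p = 0.012). The groups were separate for Loxl2 and Loxl1. Without ShCtrl array 4 and ShBNIP3 array 10 the same list had 1 rise, of the latent TGF-beta binding protein Ltbp2 (log2 0.55, limma adjusted p = 0.018), beside 3 falls. Of all probesets, 9.84% rose and 10.1% fell without those 2 arrays. With all arrays Ltbp2 differed by 0.34 (limma adjusted p = 0.54).

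Of 12 measured basement membrane collagens and laminin receptors, 1 rose and 0 fell, where 7.61% of all probesets rose and 7.87% fell. That gene was the laminin-related guidance factor Ntn1, at 7.91, 9.28, 9.65, 9.98 and 11.96 on ShBNIP3 arrays 6 to 10, against 6.84, 6.62, 6.94, 9.88 and 7.06 on ShCtrl arrays 1 to 5. Its groups overlapped through ShCtrl array 4. The log2 difference was 2.29 (SE 0.71, limma adjusted p = 0.047), and the adjusted p was between 0.0705 and 0.112 when any of ShCtrl arrays 1, 2, 3 or 5 or ShBNIP3 arrays 7 to 10 was left out. Without ShCtrl array 4 and ShBNIP3 array 10 the difference was 2.34 (limma adjusted p = 0.00054). The laminin-binding integrin chain Itga7 also passed then, with a difference of 0.86 (limma adjusted p = 0.0070), against 0.98 (limma adjusted p = 0.17) with all arrays.

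Of 13 measured receptors of adhesive and matricellular proteins, 2 rose and 1 fell, where 7.61% of all probesets rose and 7.87% fell. The heparan sulfate proteoglycan Sdc1, a co-receptor for fibronectin, laminins and tenascin, averaged 10.8 ± 0.41 in ShBNIP3 and 12.9 ± 0.58 in ShCtrl (SD, n = 5 each) and fell 4.33-fold, a difference of -2.11 (SE 0.27, limma adjusted p = 0.00022). Of the integrin chains, Itgb5, a partner of alpha v in binding vitronectin, and Itgb1, the shared chain of many matrix receptors, rose 1.47-fold (limma adjusted p = 0.0032) and 1.43-fold (limma adjusted p = 0.0038). Without ShCtrl array 4 and ShBNIP3 array 10, 5 of these receptors rose and 3 fell, where 9.84% of all probesets rose and 10.1% fell. The added rises were Itga8, an integrin chain that pairs with beta1 (log2 2.77, limma adjusted p = 1.3e-05), the thrombospondin receptor Cd47 (0.46, limma adjusted p = 0.029) and the hyaluronan receptor Cd44 (0.36, limma adjusted p = 0.047). Itga8 was at background on 3 of the ShCtrl arrays kept, so its rise starts near the floor of the array. With all arrays the differences were 2.45 (limma adjusted p = 0.24) for Itga8, 0.35 (limma adjusted p = 0.12) for Cd47 and 0.33 (limma adjusted p = 0.65) for Cd44. The added falls were the syndecan Sdc4 (-0.67, limma adjusted p = 0.0024) and the fibronectin receptor chain Itga5 (-0.42, limma adjusted p = 0.028). With all arrays Sdc4 differed by -0.76 (limma adjusted p = 0.38) and Itga5 by -0.36 (limma adjusted p = 0.27).

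**Figure D4:**
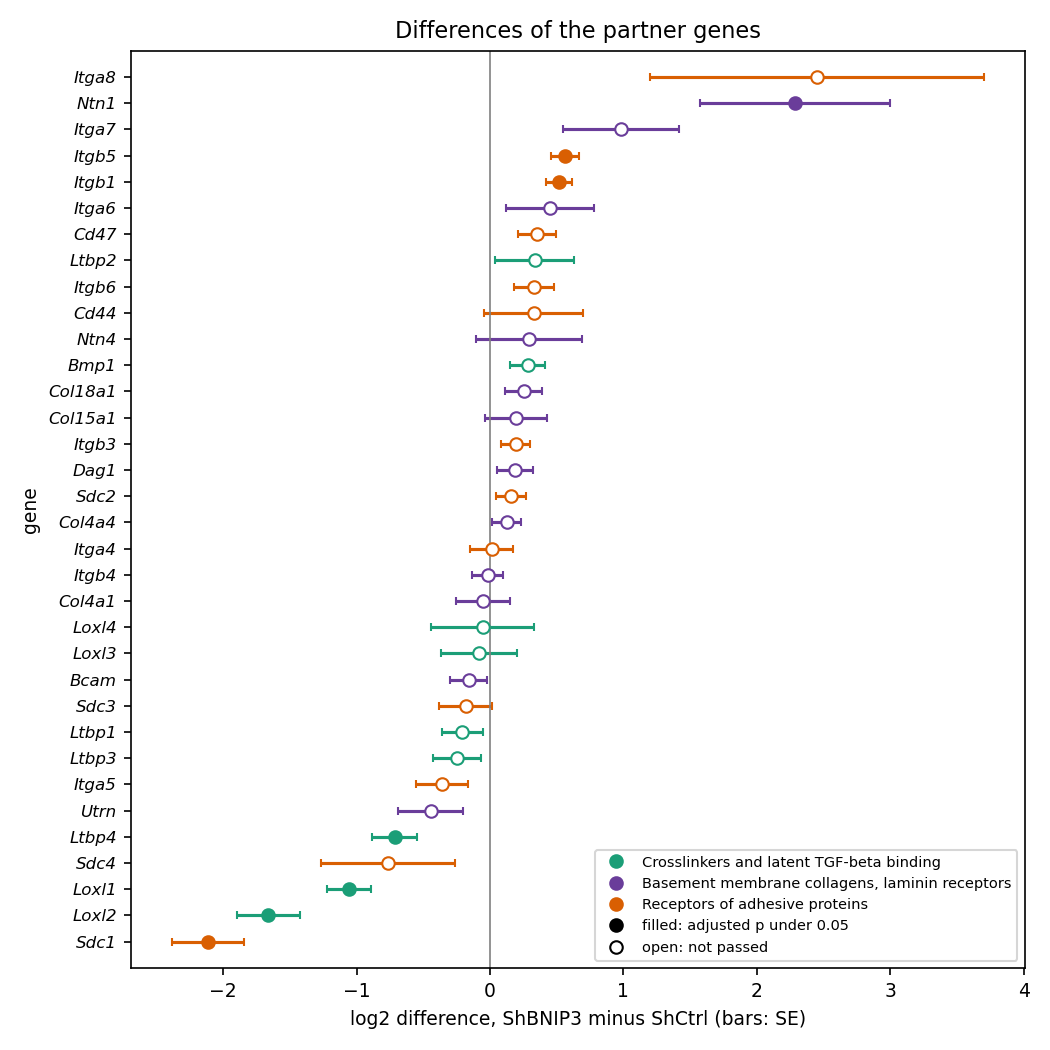
Log2 difference (ShBNIP3 minus ShCtrl, x axis) of each measured partner gene (y axis), with bars for the SE and colours for the list. Filled points passed at an adjusted p under 0.05: Ntn1, Itgb5 and Itgb1 lie to the right of 0, and Ltbp4, Loxl1, Loxl2 and Sdc1 to the left.

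Of 7 measured markers of annulus fibrosus cells and fibroblasts, 4 fell and 0 rose, where 7.87% of all probesets fell and 7.61% rose. Among the 11761 probesets above background on at least 1 array, 1702 fell and 1606 rose. The summed level of the 7 markers is the log2 of their summed linear signal. It was 19.3 to 19.5 on ShBNIP3 arrays and 19.8 on each ShCtrl array. Col1a1 and Col1a2 were the brightest of the 7, with means of 18.1 and 18.2 in ShBNIP3 and 18.5 each in ShCtrl. The surface glycoprotein Thy1 fell 1.71-fold (limma adjusted p = 0.0053), Col3a1 1.64-fold, Col1a1 1.32-fold and Col1a2 1.29-fold. Col1a2 had an adjusted p between 0.0510 and 0.0797 when any of ShCtrl arrays 1, 2 or 3 or ShBNIP3 arrays 6, 8, 9 or 10 was left out, and of 0.055 without ShCtrl array 4 and ShBNIP3 array 10 together. The growth factor receptor Pdgfra had the opposite sign, with a difference of 0.52 (limma adjusted p = 0.22) over all arrays and 0.27 (limma adjusted p = 0.24) without those 2. The tendon and annulus factor Scx differed by -0.23 (limma adjusted p = 0.36), and Tnmd was at background on all arrays. Their part in the falls of Fbln1, Mfap5 and Mfap4 was not tested.

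Among 8 smooth muscle and pericyte markers, Des fell 5.79-fold, Pdgfrb fell 1.87-fold and 0 rose. Beside this count and those of the next lists, 7.87% of all probesets fell and 7.61% rose. The summed level of the 8 markers, of which Pdgfrb was the brightest, was 14.9 to 15.3 on ShBNIP3 arrays, against 15.6 to 16.4 on ShCtrl arrays. Myh11, Notch3 and Rgs5 were at background on all arrays. Acta2 differed by -0.55 (limma adjusted p = 0.28), Cnn1 by -0.41 (limma adjusted p = 0.77) and Tagln by 0.19 (limma adjusted p = 0.86). Without ShCtrl array 4 and ShBNIP3 array 10, Tagln passed as a rise of 0.90 (limma adjusted p = 0.030), as did Myh11 within the background range (0.54, limma adjusted p = 0.041), while Des and Pdgfrb again fell. Of 10 nucleus pulposus markers, the neural cadherin Cdh2 rose at least 1.57-fold above the background at which all ShCtrl arrays lay, and Col2a1 fell 1.59-fold. Without the same 2 arrays Acan also fell (-0.97, limma adjusted p = 0.020), as did the carbonic anhydrase Car12 (-0.95, limma adjusted p = 0.037). Car12 was at background on all ShBNIP3 arrays and on 3 ShCtrl arrays. Its ShCtrl levels without array 4 were 5.03 to 6.51, so this fall lay in the background range and has no usable fold. With all arrays the differences were -0.90 (limma adjusted p = 0.19) for Acan and -1.65 (limma adjusted p = 0.11) for Car12, which was at 9.41 on ShCtrl array 4. The summed level of the nucleus pulposus markers, of which Acan was the brightest, was 11.8 to 13.7 on ShBNIP3 arrays and 12.8 to 14.4 on ShCtrl arrays. Of 10 macrophage and leukocyte markers, Cd68 rose 2.83-fold and Cd53 passed within the background range, while Ptprc, Csf1r and Adgre1 were at background. The summed level of these markers was 8.59 to 9.35 on ShBNIP3 arrays, against 7.90 to 8.66 on ShCtrl arrays. As 9 of the 10 were at background on all arrays, Cd68 alone added signal above it, with means of 8.59 in ShBNIP3 and 7.09 in ShCtrl. None of 6 bone and hypertrophic cartilage markers passed in limma (1 fell by an unadjusted p under 0.05), with Sp7, Bglap, Dmp1 and Alpl at background. Runx2 was above background on all arrays, with means of 11.0 in ShBNIP3 and 10.7 in ShCtrl (limma adjusted p = 0.71). Ibsp was above background only on ShBNIP3 array 10, at 8.50 (limma adjusted p = 0.50). The part of these cell types in the results was not tested.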

How the data were processed

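The deposited table holds log2 values, 1 per probeset and array, normalized by the authors with sst-rma after labelling with the GeneChip WT Plus kit, per the labels. The Transcriptome Analysis Console is named in the submitters' processing notes. Its version, the genome build and the annotation behind the probesets are not given in the sources used here. The 1646 control probesets were left out, and 23188 were tested with limma 3.58.1 (lmFit, eBayes) in R 4.3.3, with no further normalization or filter and no covariate. Groups came from the sample titles. For arrays, their number limits the precision. Gene symbols are those of the platform annotation. No gene here shares its values with another probeset.

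The symbol rule for the genes and the partner and marker lists were set with earlier results of these data known. The text names every member that passed, Postn, Fbln1 and Cilp, members that differ by at least 2-fold, and the partner genes that passed; other named members complete the families. A gene at background in both groups gets no fold. With 1 group at background, a fold is the brighter mean over the background level, as "at least". Single genes were also tested by exact two-sided permutation of the group means over 252 splits. The fit was tested on simulated data. Alternatives were quantile normalization, median centring, a trended and robust variance, array weights, a filter on dim probesets, another adjustment and arrays left out. Sequences are from RefSeq (GRCr8), matched by Entrez identifier.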

Additional observations from a re-analysis of the deposited data

Results flagged for a closer look

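Among 74 groups of 5 arrays (the 36 genes and Bnip3 in each group), 8 values stood apart from the other 4 of their group by Dixon's criterion, where chance gives about 1 in 20 groups. Of these, 4 were on ShCtrl array 4 and 3 on ShBNIP3 array 10. On ShBNIP3 array 10, Efemp2 was at 15.47 (others 14.78 to 14.85), Tnc at 14.48 (others 12.06 to 12.68) and Lamc1 at 14.42 (others 12.47 to 12.88). On ShCtrl array 4, Postn was at 9.20 (others 7.59 to 7.94), Cilp at 8.07 (others 6.49 to 6.66), Tnc at 15.37 (others 12.32 to 12.77) and Lamc1 at 14.22 (others 12.54 to 12.83). Sparc was at 19.18 on ShBNIP3 array 6, where the others spanned 19.04 to 19.06.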

How the results depend on the processing

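Across all alternatives run, the counts of genes that rose stayed between 2 and 4 and those that fell between 2 and 7, where the values reported are 3 and 5. Among the probesets above background on at least 5 arrays, 18 of the 36 genes remained and 2 fell, since Cilp, Comp and Mfap4 are not in that fit. With Benjamini-Yekutieli adjustment, 1370 probesets passed in all, 2 of the 36 genes fell and 1 passed with at least 2-fold. With 1 array left out, 2746 to 3960 probesets passed, 2 to 4 genes rose, 5 to 6 fell, 2 to 4 passed with at least 2-fold, and the median difference was -0.17 to -0.05. The adjusted p of Postn was 0.0501 and that of Ntn1 0.124 with a trended and robust variance. The sign turned for 11 of the 36 genes, none of which passed. Of these, 4 were above background: Sparc differed by 0.079 under quantile normalization, and with 1 array left out Tnc ranged over -0.78 to 0.23, Fbln5 over -0.25 to 0.50 and Lamc1 over -0.31 to 0.37. The other 7 (Lama5, Lamc3, Thbs4, Mfap2, Vtn, Matn1 and Matn4) were at background on all arrays and stayed between -0.27 and 0.23 in every alternative run. The causes were not tested. Fn1, brightest on all arrays, has by construction a difference of 0 under quantile normalization. Fbn1 passed without ShCtrl array 3 (-0.45, limma adjusted p = 0.045) and Thbs2 with array weights (-0.41, limma adjusted p = 0.047). No paired analysis was possible because the groups share no replicate number.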
